A study of Mus musculus with 18 samples.

Results

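The genes described here encode the secretory pathway of the endoplasmic reticulum (ER) and the unfolded protein response (UPR), in 3 dendritic cell subsets sorted from mouse spleen. They are 44 protein-coding genes taken from a list of ER translocation, folding, quality control, UPR and COPII symbols. All 44 were among the 15219 genes listed for every subset, and all 44 passed the filter on low counts that left 13539 genes for testing. It falls into 6 sensors and transcription factors, 11 chaperones and cofactors, 4 protein disulfide isomerases, 7 genes of ER-associated degradation, 12 genes of translocation and signal peptide cleavage, and 4 genes of COPII transport and KDEL retrieval.

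The subsets were conventional dendritic cells 1 (cDC1, sorted as XCR1+ CD11b-), conventional dendritic cells 2 (cDC2, sorted as XCR1- CD11b+) and plasmacytoid dendritic cells (pDC, sorted as BST2+ CD11b- with intermediate CD11c). Per the labels there are 18 samples. Each subset has 3 from mice with the genotype HDAC1 floxed and 3 from HDAC1-Mx1Cre mice, in which the interferon-inducible Mx1 promoter drives Cre recombinase. Every mouse, controls included, received PolyI/C, an interferon inducer, and cells were sorted 2 weeks later, so that no group is untreated. Mx1-Cre acts in blood cells and in other tissues, so a deletion is not limited to dendritic cells. The sources used here give neither the age nor the strain of the mice.

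The value columns carry codes that match no sample label, so the genotype of a library was not used and no comparison of genotypes was made. Only the subset is given, by the table that holds a column. The comparisons below are between subsets, with 6 libraries in each, and the genotypes are mixed within every subset. A difference between genotypes is therefore part of the spread around each value. Hdac1 itself ranged from 5.58 to 77.3 CPM (counts scaled to the size of the library) among the cDC1 libraries, from 6.02 to 83.4 among the cDC2 libraries and from 8.46 to 113 among the pDC libraries, and within each subset the values fell into 2 separate ranges. No library was assigned to a genotype by them. Libraries are numbered 1 to 6 within a subset in the order of the deposited columns, and neither a genotype nor a mouse was read from a number. Which libraries came from the same mouse is not known here, so the p-values measure the spread between these libraries. Subset and deposited table cannot be told apart.

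Proteins that leave the cell or enter its membranes are threaded into the ER through the Sec61 channel, lose their signal peptide, fold with the help of chaperones and disulfide isomerases, and leave in COPII vesicles. Misfolded chains are returned to the cytosol and degraded. When unfolded protein builds up, the sensors IRE1 (Ern1), PERK (Eif2ak3) and ATF6 signal to the nucleus, IRE1 by splicing the Xbp1 messenger RNA and PERK by raising translation of Atf4. Plasmacytoid cells are known for secreting large amounts of type I interferon, and cDC1 for cross-presenting antigen on MHC class I, which is loaded in the ER with calreticulin and the isomerase encoded by Pdia3.

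Several listed genes carry the ER stress response element (ERSE) upstream of their start. These stretches are shown because they are a DNA sequence that several chaperone genes of the list share. The motif, CCAAT and CCACG separated by a fixed spacer, was searched on both strands in RefSeq promoter windows of build GRCm38.p6, from 250 bases before to 50 after the start. Promoter windows were found for 36 of the 44 genes. ERSE was present in 8 of the 36 genes (22.2%), against 39 of all 32851 windows (0.119%). The first share counts genes and the second windows, and all windows include the 38 of the listed genes. The difference was not tested. Each stretch is written 5′ to 3′ on the strand of the gene, with the fixed letters of the motif in capitals. Where the element lies on the other strand it reads CGTGG, spacer, ATTGG. The stretch of Hspa5 overlaps an exon annotated in GENCODE M21 and is given shorter.
Hspa5, chr2:34772020-34772048, plus strand: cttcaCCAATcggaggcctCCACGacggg
Hsp90b1, chr10:86705618-86705676, minus strand: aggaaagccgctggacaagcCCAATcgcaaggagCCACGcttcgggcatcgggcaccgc
Hsp90b1, chr10:86705513-86705571, minus strand: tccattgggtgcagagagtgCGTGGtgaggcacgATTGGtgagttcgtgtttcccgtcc
Calr, chr8:84847055-84847113, minus strand: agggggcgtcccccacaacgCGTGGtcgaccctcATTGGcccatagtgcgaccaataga
Canx, chr11:50325780-50325838, minus strand: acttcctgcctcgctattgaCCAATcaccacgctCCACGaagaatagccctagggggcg
Dnajc3, chr14:118937807-118937865, plus strand: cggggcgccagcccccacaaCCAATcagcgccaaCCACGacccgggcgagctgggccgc
Creld2, chr15:88819500-88819558, plus strand: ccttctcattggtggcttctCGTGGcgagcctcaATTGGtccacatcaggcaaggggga
Pdia6, chr12:17266471-17266529, plus strand: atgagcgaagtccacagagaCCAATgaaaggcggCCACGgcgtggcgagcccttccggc
Derl3, chr10:75893222-75893280, plus strand: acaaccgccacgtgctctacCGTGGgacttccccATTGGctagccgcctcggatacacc
Hsp90b1 was the only one of the 36 with more than 1 ERSE match in its window.

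The related element ERSE-II, ATTGG and CCACG with 1 base between them, was found in 2 of the 36 genes and in 12 of all windows (0.0365%). One is Herpud1, and the other is Dnajb11, where the match lies after the start. The core of the UPR element, TGACGTGG, was found in Sec24d alone among the 36, and in 222 windows (0.676%). The ATF4 element, TGATGCAA, was found in Herpud1 alone, and in 294 windows (0.895%). These stretches are shown because Sec24d had the largest difference between subsets of the list and Herpud1 had 2 kinds of element. The Sec24d stretch overlaps an annotated exon and is given shorter. In the ATF4 stretch the element lies on the other strand and reads TTGCATCA.
Herpud1, ERSE-II, chr8:94386357-94386407, plus strand: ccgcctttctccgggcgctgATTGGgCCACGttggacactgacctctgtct
Herpud1, ATF4 element, chr8:94386297-94386344, plus strand: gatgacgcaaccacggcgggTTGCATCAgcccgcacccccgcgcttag
Sec24d, UPR element core, chr3:123267465-123267482, plus strand: gcgccTGACGTGGcacta
A match describes the letters in these windows and shows no binding.

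The libraries held 23530860 to 37105002 counts. Subset markers followed the table names: Xcr1 was at 870 to 1121 CPM in cDC1 and at 10.3 or less elsewhere, Itgam (CD11b) was at 34.4 to 50.9 in cDC2 and at 3.11 or less elsewhere, and Siglech was at 7099 to 8961 in pDC and at 39.7 or less elsewhere. Cd209a and Clec10a, placed on the cDC2 marker list, were highest in pDC. Of the cDC1 marker list, Irf8 was higher in pDC (3807 to 4296 CPM) than in cDC1 (1370 to 1903), and Tlr3 overlapped between pDC (105 to 133) and cDC1 (110 to 138). Transcripts used as markers of plasma cells, a cell type with a very large ER, were present in uneven amounts. Which cells they came from was not tested. Of the 10 plasma cell markers 8 could be measured, and their sum was 544 to 2360 CPM in cDC1, 294 to 474 in cDC2 and 2548 to 3164 in pDC. Most of the pDC sum was Ighm, at 1689 to 2062 CPM. Prdm1 and Ighg2b had their highest medians in cDC2 (9.65 and 9.46 CPM), and the medians of Jchain and Igha were higher in cDC1 (131 and 285) than in pDC (89.4 and 109). Jchain ranged from 18.7 to 326 CPM in cDC1, from 1.40 to 21.2 in cDC2 and from 5.47 to 196 in pDC, and none of the 8 markers was at 0 in all libraries of a subset. The sum of 5 neutrophil markers was 207 to 927 CPM in cDC1, 33.3 to 132 in cDC2 and 11.1 to 178 in pDC. That of the erythroid markers was 2962 to 9329 CPM in cDC1, 3370 to 6021 in cDC2 and 2203 to 6032 in pDC, highest in library 2 of each subset, and that of the macrophage markers was 74.8 to 223, 208 to 653 and 7.80 to 20.3. The part of other cells in the differences between subsets was not tested. The counts over all 44 genes, and the differences of single genes, were also made without the 3 libraries richest in Jchain. These were cDC1 libraries 2 and 6 and pDC library 6. They were picked on 1 plasma cell marker, so leaving them out is no test of the part of other cells. In bulk samples, fewer cells of a type and less RNA per cell cannot be told apart.

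The cDC2 libraries had the lowest levels of this set of genes. Summed over the 44 genes, the level was 10607 to 13727 CPM in cDC1 (median 12906), 6086 to 7148 in cDC2 (median 6639) and 10133 to 11732 in pDC (median 10765). Every cDC1 and pDC library lay above every cDC2 library, and cDC1 and pDC overlapped. The sum gives weight to a few abundant genes, such as Pdia3, Hspa5, Calr and Hsp90b1. In the plot of all genes by library, the genes formed a block of low values in cDC2 across the chaperones, isomerases and much of the translocation machinery, and the high values were split between cDC1 and pDC.

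**Figure D1:**
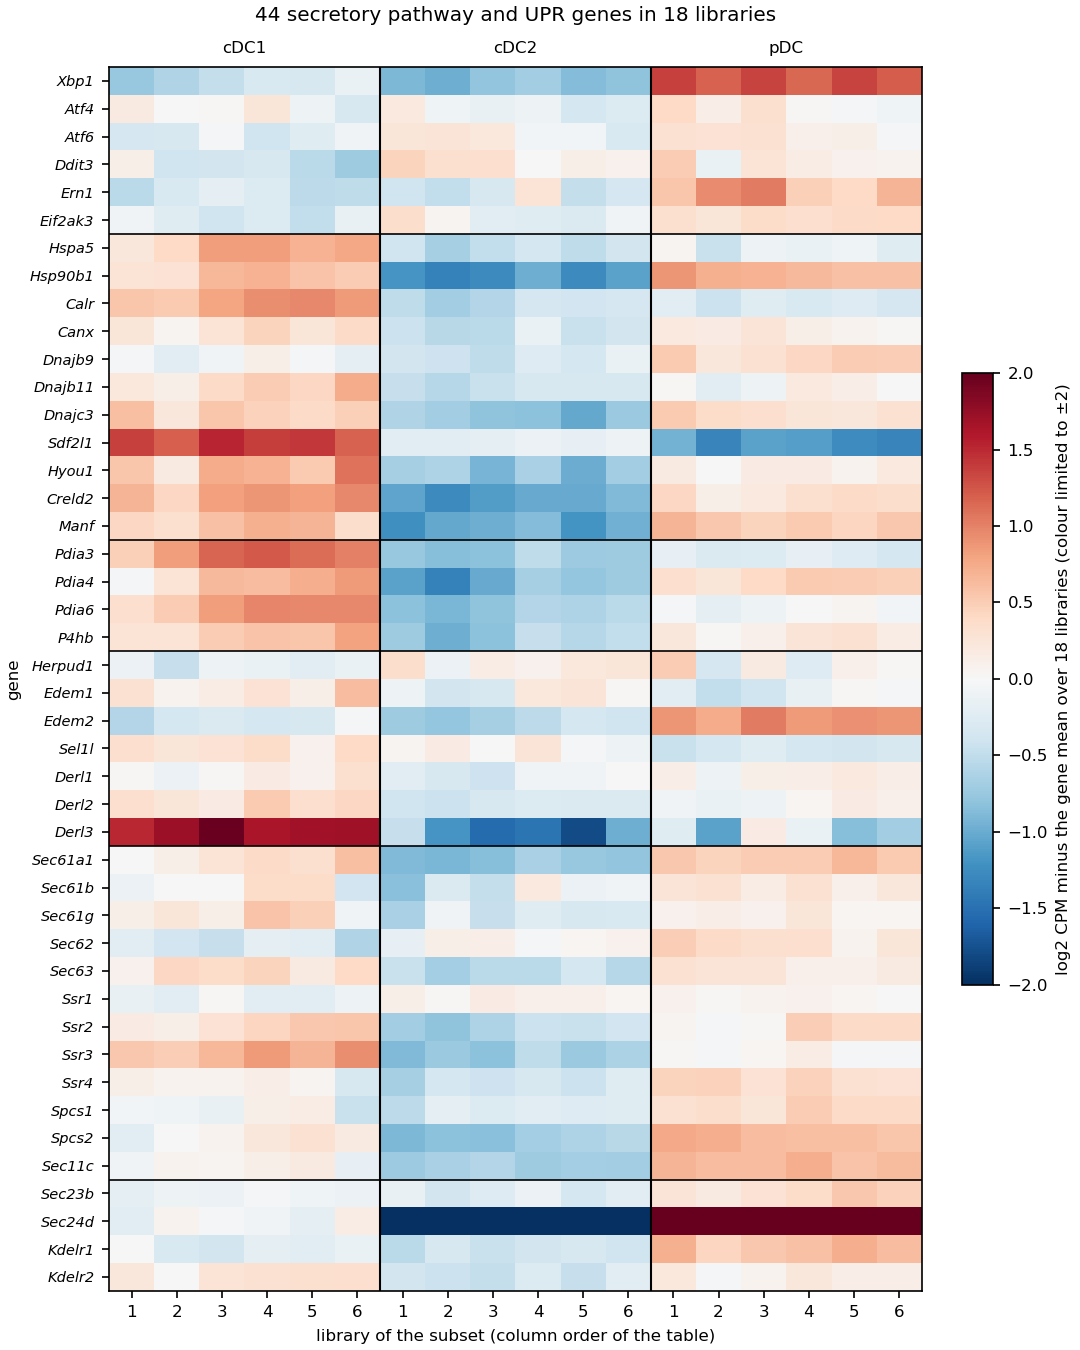
Levels of the 44 genes (rows, grouped by role and separated by lines) in the 18 libraries (columns, 6 each of cDC1, cDC2 and pDC). Colour is log2 CPM minus the mean of the gene over the 18 libraries, limited to 2 in either direction, and cDC2 is blue for most chaperones and isomerases while Xbp1, Edem2 and Sec24d are red in pDC only.

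Between cDC1 and cDC2, 33 of the 44 genes were higher in cDC1, 5 were lower and 6 did not pass an adjusted p of 0.05 (edgeR's quasi-likelihood test with Benjamini-Hochberg adjustment over all tested genes, as for every adjusted p below). Over all tested genes 50.5% passed, and 24.8% were higher in cDC1 and 25.7% were lower. The median log2 difference was 0.68 over the 44 genes and 0.01 over all tested genes. At least 2-fold differences were found in 16 genes, all of them higher in cDC1, where 8.12% of all tested genes were higher and 9.61% lower by that rule. Without the 3 Jchain-rich libraries the counts were 30 higher and 4 lower, and 16 were again higher by at least 2-fold.

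Between pDC and cDC2, 35 of the 44 genes were higher in pDC, 2 were lower and 7 did not pass, against 64.1% of all tested genes that passed, 32.0% higher and 32.2% lower. The median log2 difference was 0.65, and -0.01 over all tested genes. By the 2-fold rule 11 genes were higher and none lower, against 12.6% and 17.4% of all tested genes. Sdf2l1, at a log2 difference of -0.99, fell just short of that rule. Without the 3 Jchain-rich libraries, 37 genes were higher and 2 lower.

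Between pDC and cDC1 the genes were split, with 17 higher in pDC, 14 lower and 13 that did not pass, against 66.4% of all tested genes that passed, 32.1% higher and 34.3% lower. The median log2 difference was 0.01, and -0.04 over all tested genes. By the 2-fold rule 4 were higher and 4 lower, against 13.1% and 17.2%. Without the 3 Jchain-rich libraries 17 were higher and 13 lower. All tested genes were split as well: 48.3% of their calls were higher in pDC, against 54.8% for the listed genes, a difference that was not tested. Both splits depended on scaling. With library totals in place of the TMM scaling factors, 22 listed genes were higher and 10 lower. The share of higher calls was then 68.8% in place of 54.8% for the listed genes, and 61.4% in place of 48.3% over all tested genes. The same change moved the median of all tested genes in this comparison to 0.17. The 3 comparisons share libraries, so their counts are not independent of each other.

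Some genes separated 1 subset from all others with no overlap. All 6 cDC2 libraries lay below all 12 others for 20 of the 44 genes, against 5.43% of all tested genes, and above all others for 0 genes, against 8.8%. All 6 pDC libraries lay above all others for 11 genes, against 16.3%, and below for Sdf2l1 and Sel1l, against 15.2%. All 6 cDC1 libraries lay above all others for 8 genes, against 7.77%, and below for Sec62, against 5.67%. The 8 that were highest in cDC1 were Hspa5, Calr, Sdf2l1, Pdia3, Pdia6, Derl2, Derl3 and Ssr3. The 11 that were highest in pDC were Xbp1, Ern1, Dnajb9, Edem2, Ssr4, Spcs1, Spcs2, Sec11c, Sec23b, Sec24d and Kdelr1.

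**Figure D2:**
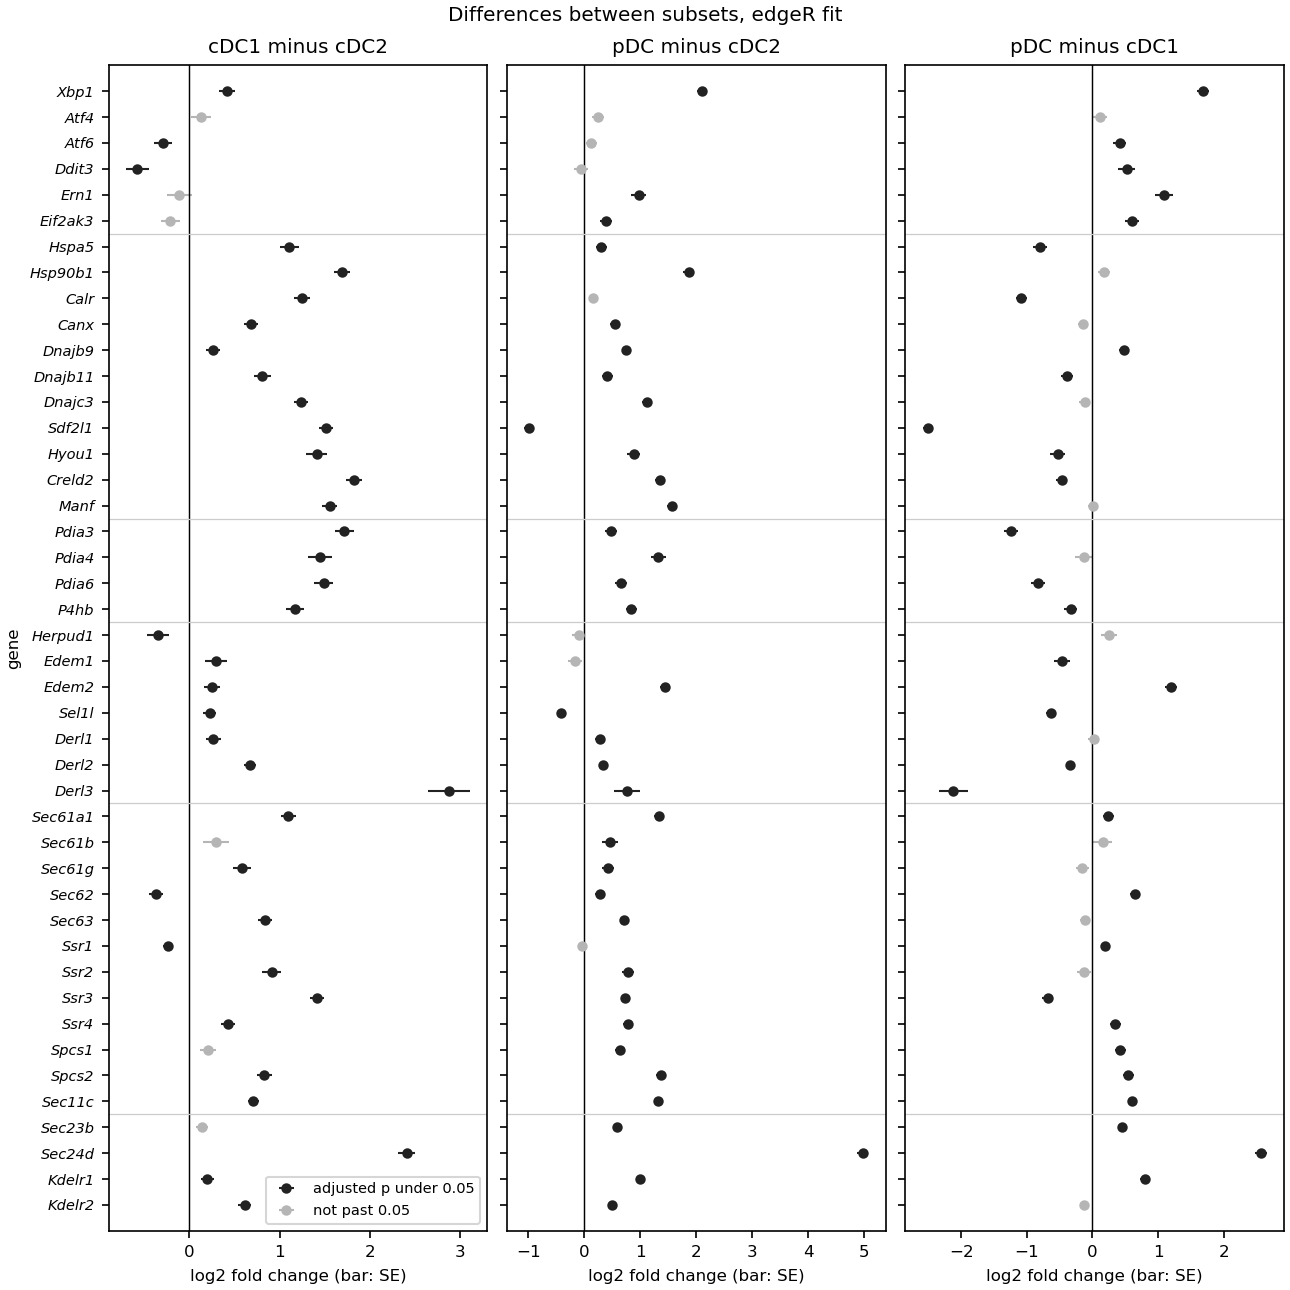
Log2 fold change of each of the 44 genes (points) with its standard error (bars) in the 3 comparisons between subsets, from edgeR's fit to 18 libraries. Black points passed an adjusted p of 0.05 and grey points did not; 33 genes lie right of 0 and pass for cDC1 minus cDC2, 35 for pDC minus cDC2, and the points for pDC minus cDC1 lie on both sides.

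Among the sensors and transcription factors, Xbp1 and the gene of its activating enzyme, Ern1, were highest in pDC. Xbp1 (chromosome 11, 5520659 to 5525893, plus strand, GRCm38) encodes the transcription factor that IRE1 activates by splicing and that drives expansion of the ER in secretory cells. Its lowest, median and highest levels were 162.04, 208 and 249 CPM in cDC1, 139, 153 and 168.8 in cDC2, and 608, 665 and 705 in pDC. The lowest pDC library lay far above the highest library of the other subsets, and cDC1 and cDC2 overlapped. The log2 difference was 1.69 ± 0.09 (SE) between pDC and cDC1 (adjusted p = 1.6e-12), 2.11 ± 0.09 between pDC and cDC2 (adjusted p = 5.6e-14) and 0.42 ± 0.09 between cDC1 and cDC2 (adjusted p = 0.00058). Counts per gene do not show how much of the Xbp1 message was spliced.

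Ern1, the gene of IRE1, was at 8.72, 9.57 and 11.1 CPM in cDC1, 8.95, 9.78 and 15.2 in cDC2, and 16.7, 19.4 and 26.0 in pDC. All pDC libraries were above all others. The difference was 1.08 ± 0.14 against cDC1 (adjusted p = 7.4e-07) and 0.97 ± 0.14 against cDC2 (adjusted p = 3.1e-06). The conventional subsets overlapped, with a log2 difference of -0.11 ± 0.14 (adjusted p = 0.54).

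Eif2ak3, the gene of the sensor kinase PERK, had medians of 11.4 CPM in cDC1, 12.3 in cDC2 and 17.3 in pDC, and the highest cDC2 library (17.4) reached into the pDC range (16.2 to 17.9). It was higher in pDC than in cDC1 by 0.60 ± 0.10 (adjusted p = 3.8e-05) and than in cDC2 by 0.39 ± 0.10 (adjusted p = 0.0026), and its difference between cDC1 and cDC2, -0.21 ± 0.10, did not pass (adjusted p = 0.10). Atf6, the gene of the third sensor, a membrane-bound transcription factor, had medians of 32.2, 41.6 and 45.2 CPM in cDC1, cDC2 and pDC. It was lower in cDC1 than in cDC2 by 0.29 ± 0.10 on the log2 scale (adjusted p = 0.017) and lower than in pDC by 0.42 ± 0.10 (adjusted p = 0.0008).

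The effector of PERK, Atf4, passed in no comparison by edgeR's quasi-likelihood test with TMM scaling and all libraries. Its medians were 171.4 CPM in cDC1, 156 in cDC2 and 179 in pDC, with overlapping ranges. Its pDC minus cDC2 difference of 0.25 ± 0.11 had an adjusted p of 0.051, and it passed without the 3 Jchain-rich libraries (adjusted p = 0.012), with DESeq2 (adjusted p = 0.044), with limma-voom (adjusted p = 0.046) and with library totals (0.45, adjusted p = 0.00066). With library totals its pDC minus cDC1 difference passed too (0.33, adjusted p = 0.0068). Ddit3, the gene of CHOP, a transcription factor of late ER stress, was lowest in cDC1, at 21.9, 27.6 and 39.0 CPM, against 35.9, 42.0 and 49.0 in cDC2 and 32.8, 39.0 and 51.1 in pDC. All 3 ranges overlapped. The cDC1 level was lower than that of cDC2 by 0.58 ± 0.12 on the log2 scale (adjusted p = 0.00063) and than that of pDC by 0.52 ± 0.12 (adjusted p = 0.001). GENCODE M21 has overlapping entries under the symbol Ddit3, and the sources used here do not say how their reads were assigned.

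All 11 chaperones and cofactors were higher in cDC1 than in cDC2, 8 of them by at least 2-fold, with a median log2 difference of 1.25. Between pDC and cDC2 9 were higher, 1 was lower and 1 did not pass. Between pDC and cDC1 1 was higher, 6 were lower and 4 did not pass. The summed level was 4380 to 5742 CPM in cDC1, 1906 to 2323 in cDC2 and 3324 to 3972 in pDC, with no overlap between any of the subsets. For this group and those below, the shares over all tested genes were 24.8% higher and 25.7% lower in cDC1 than in cDC2. They were 32.0% and 32.2% in pDC against cDC2, and 32.1% and 34.3% in pDC against cDC1.

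Hspa5 (chromosome 2, 34771970 to 34777547, plus strand) encodes BiP, the main ER chaperone, which binds nascent chains and holds the sensors inactive. Its levels were 1158, 1656 and 1776 CPM in cDC1, 629, 730 and 776 in cDC2, and 731, 915 and 1029 in pDC. All cDC1 libraries were above all others, and cDC2 and pDC overlapped. The log2 difference was 1.11 ± 0.11 for cDC1 minus cDC2 (adjusted p = 3.4e-08), -0.80 ± 0.11 for pDC minus cDC1 (adjusted p = 1.4e-06) and 0.31 ± 0.11 for pDC minus cDC2 (adjusted p = 0.015).

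Hsp90b1 (chromosome 10, 86690209 to 86705509, minus strand) encodes GRP94, the ER form of HSP90, which folds Toll-like receptors and integrins. It was at 814, 981 and 1094 CPM in cDC1, at 265, 288 and 342 in cDC2, and at 1007, 1073 and 1242 in pDC. It was thus low in cDC2 and overlapped between cDC1 and pDC. The log2 difference was 1.69 ± 0.09 for cDC1 minus cDC2 (adjusted p = 5.5e-12) and 1.87 ± 0.09 for pDC minus cDC2 (adjusted p = 2.9e-13). The pDC minus cDC1 difference of 0.18 ± 0.09 did not pass (adjusted p = 0.087), but passed with library totals (0.39, adjusted p = 0.00028).

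Sdf2l1 (chromosome 16, 17130138 to 17132383, minus strand) encodes a cofactor of the BiP chaperone complex and had another order. It was at 383, 440 and 486 CPM in cDC1, at 145, 150 and 158.8 in cDC2, and at 67.9, 75.1 and 87.8 in pDC, with no overlap between any of the subsets. It was higher in cDC1 than in cDC2 by 1.52 ± 0.08 on the log2 scale (adjusted p = 2.2e-12). In pDC it was lower than in cDC1, at -2.51 ± 0.08 (adjusted p = 4.1e-16), and lower than in cDC2, at -0.99 ± 0.08 (adjusted p = 4.2e-10).

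Calr, the gene of the lectin chaperone calreticulin, was at 910, 1117 and 1231 CPM in cDC1, against 390, 465 and 500 in cDC2 and 468, 518 and 535 in pDC. All cDC1 libraries were above all others, by 1.25 ± 0.09 over cDC2 (adjusted p = 3.7e-10) and 1.08 ± 0.09 over pDC (adjusted p = 9.8e-10), and pDC and cDC2 overlapped (0.17 ± 0.09, adjusted p = 0.10). The last difference passed without the 3 Jchain-rich libraries (0.22, adjusted p = 0.042) and with library totals (0.37, adjusted p = 0.00083). Canx, the gene of its membrane-bound relative calnexin, differed between cDC1 and cDC2 by 0.68 ± 0.08 (adjusted p = 4.1e-07), and between pDC and cDC1 by -0.14 ± 0.08, which did not pass (adjusted p = 0.12).

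Creld2 and Manf, which encode secreted or ER-resident stress-induced proteins, were low in cDC2. Creld2 was at 58.9, 69.7 and 76.9 CPM in cDC2, against 189, 251 and 277 in cDC1 and 154, 179 and 190 in pDC, and differed by 1.82 ± 0.09 for cDC1 minus cDC2 (adjusted p = 1.3e-12) and 1.35 ± 0.09 for pDC minus cDC2 (adjusted p = 3.1e-11). Manf was at 72.1, 84.2 and 92.2 CPM in cDC2, against 211, 239 and 275 in cDC1 and 227, 243 and 271 in pDC, a log2 difference of 1.56 ± 0.08 for cDC1 minus cDC2 (adjusted p = 5.4e-12) and 1.57 ± 0.08 for pDC minus cDC2 (adjusted p = 1.2e-12). For both genes every cDC2 library lay below every other library, and cDC1 and pDC overlapped.

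The co-chaperones with a J domain did not share an order. Dnajc3, which encodes the PERK inhibitor p58IPK, had medians of 212, 89.6 and 192 CPM in cDC1, cDC2 and pDC. Dnajb11 had medians of 163.02, 94.7 and 125 CPM. Its pDC minus cDC1 difference of -0.39 ± 0.09 (adjusted p = 0.00093) did not pass with library totals (adjusted p = 0.15). Dnajb9, a target of XBP1, was highest in pDC, at 44.6, 52.3 and 54.7 CPM, against 32.7 to 41.2 in cDC1 and 26.9 to 34.8 in cDC2, and was the only gene of this group that was higher in pDC than in cDC1 (0.48 ± 0.08, adjusted p = 1.1e-05). Hyou1, the gene of a nucleotide exchange factor of BiP, had medians of 23.4, 9.40 and 16.9 CPM.

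**Figure D3:**
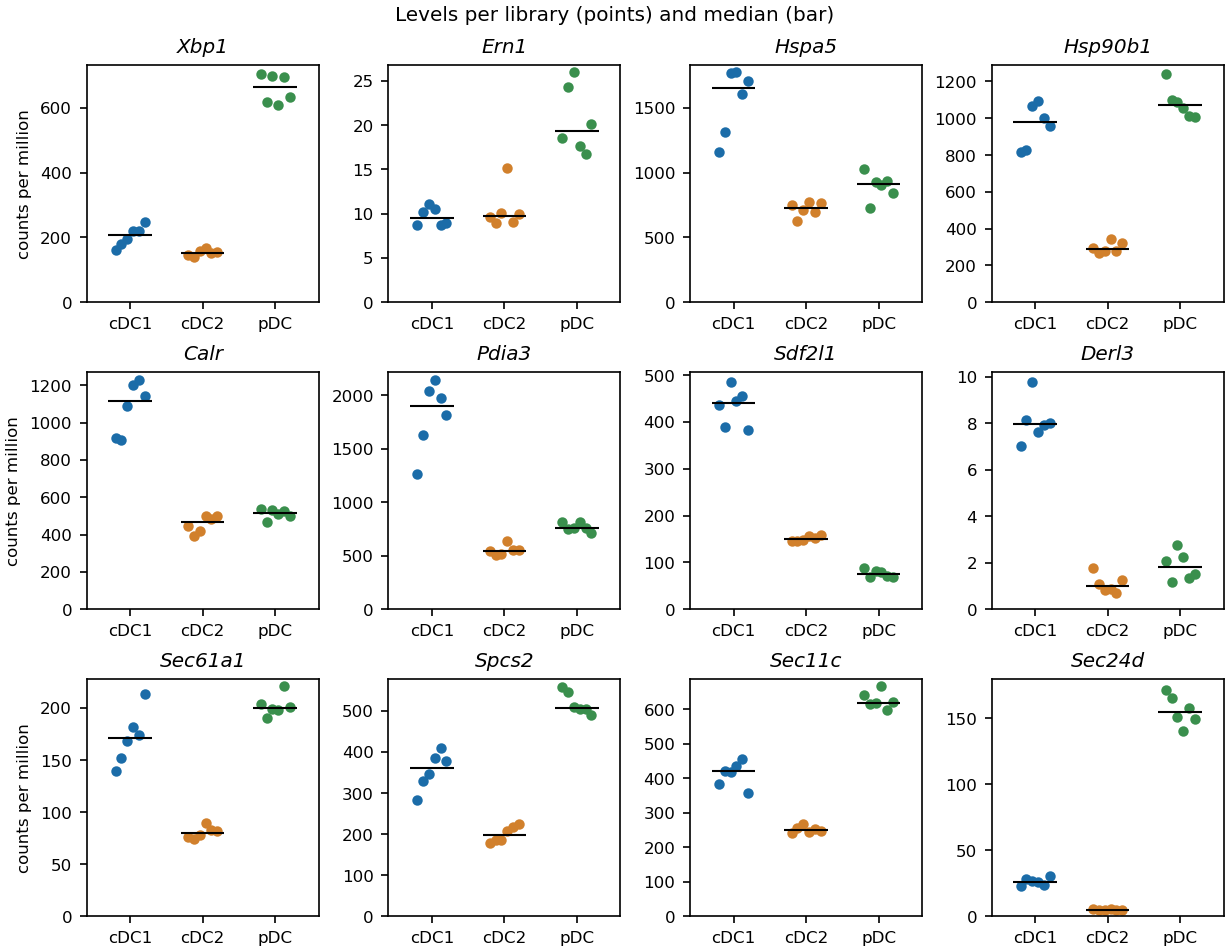
Levels in CPM (vertical axes from 0, a separate scale for each gene) of 12 of the genes in the 6 libraries of each subset (points), with the median as a bar. Xbp1, Ern1, Spcs2, Sec11c and Sec24d were highest in pDC, Hspa5, Calr, Pdia3, Sdf2l1 and Derl3 were highest in cDC1, and Hsp90b1 and Sec61a1 were low in cDC2.

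The 4 protein disulfide isomerases form and rearrange disulfide bonds. All 4 were higher in cDC1 than in cDC2, each by at least 2-fold, and all 4 were higher in pDC than in cDC2. Their sum was 2070 to 3304 CPM in cDC1, 839 to 1101 in cDC2 and 1399 to 1580 in pDC, with no overlap. Pdia3 encodes ERp57, the isomerase of the MHC class I loading complex. It was at 1261, 1896 and 2137 CPM in cDC1, at 503, 544 and 641 in cDC2, and at 711, 758 and 815 in pDC, and the subsets did not overlap. The log2 difference was 1.72 ± 0.11 for cDC1 minus cDC2 (adjusted p = 4.2e-11), -1.24 ± 0.10 for pDC minus cDC1 (adjusted p = 1.6e-09) and 0.48 ± 0.10 for pDC minus cDC2 (adjusted p = 0.00039).

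Pdia6 had the same order without overlap, at medians of 632 CPM in cDC1, 207 in cDC2 and 328 in pDC, and its differences were 1.49 ± 0.11 for cDC1 minus cDC2 (adjusted p = 4.0e-10) and -0.83 ± 0.10 for pDC minus cDC1 (adjusted p = 6.0e-07). Pdia4 was at 108, 169.6 and 196 CPM in cDC1, at 42.9, 59.2 and 68.9 in cDC2 and at 129, 148 and 156.8 in pDC. It was lowest in cDC2, by 1.45 ± 0.13 against cDC1 (adjusted p = 1.5e-08) and 1.32 ± 0.13 against pDC (adjusted p = 2.3e-08), and did not pass between pDC and cDC1 (-0.13 ± 0.13, adjusted p = 0.39). P4hb, the gene of the founding isomerase PDI, had medians of 325, 144 and 257 CPM, and its difference of -0.33 ± 0.10 between pDC and cDC1 (adjusted p = 0.006) did not pass without the 3 Jchain-rich libraries (adjusted p = 0.063) or with library totals (adjusted p = 0.35).

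The genes of ER-associated degradation, which extract misfolded chains for the proteasome, were less uniform. Between cDC1 and cDC2 6 of 7 were higher and Herpud1 was lower, with a median log2 difference of 0.26. Between pDC and cDC1 1 was higher, 4 were lower and 2 did not pass, against 32.1% higher and 34.3% lower of all tested genes. Between pDC and cDC2 4 were higher, 1 was lower and 2 did not pass. With library totals, Edem1 (adjusted p = 0.12) and Derl2 (adjusted p = 0.19) no longer passed as lower in pDC than in cDC1. Herpud1 then passed as higher in pDC than in cDC1 (0.46, adjusted p = 0.0026). The summed level of the 7 genes overlapped between the 3 subsets.

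Derl3, a derlin of the dislocation channel that is abundant in secretory cells, had the largest difference of the list between cDC1 and cDC2, at low levels. It was at 7.0, 7.97 and 9.76 CPM in cDC1, at 0.707, 0.985 and 1.78 in cDC2 and at 1.17, 1.80 and 2.77 in pDC, and the lowest library held 19 counts. All cDC1 libraries were above all others, while cDC2 and pDC overlapped. The difference was 2.88 ± 0.23 for cDC1 minus cDC2 (adjusted p = 2.5e-09) and -2.12 ± 0.22 for pDC minus cDC1 (adjusted p = 4.4e-08). The relatives Derl1 and Derl2 differed less, by 0.26 ± 0.08 (adjusted p = 0.011) and 0.67 ± 0.07 (adjusted p = 7.2e-08) for cDC1 minus cDC2.

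Edem2, a lectin-like protein that marks glycoproteins for degradation, was highest in pDC, at 193, 211 and 237 CPM, against 76.8, 91.3 and 113 in cDC1 and 67.3, 76.4 and 89.8 in cDC2. All pDC libraries were above all others, by 1.2 ± 0.09 over cDC1 (adjusted p = 2.7e-10) and 1.45 ± 0.09 over cDC2 (adjusted p = 1.4e-11). Sel1l, the scaffold of the HRD1 ligase, was instead lowest in pDC. It was at 64.6, 68.6 and 74.5 CPM in pDC, against 92.9, 109 and 116 in cDC1 and 82.2, 89.9 and 105 in cDC2, and was lower in pDC than in cDC1 by 0.64 ± 0.07 on the log2 scale (adjusted p = 6.3e-08).

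Edem1 was just past the threshold between cDC1 and cDC2 (0.29 ± 0.12, adjusted p = 0.049) and did not pass without the 3 Jchain-rich libraries (adjusted p = 0.17), with DESeq2 (adjusted p = 0.053) or without any of 12 single libraries (adjusted p = 0.050 to 0.14). Herpud1 encodes an ER membrane protein that recruits the degradation machinery. Its message was at 602, 752 and 771 CPM in cDC1 and at 763, 933 and 1046 in cDC2. In pDC it was at 651, 859 and 1176 CPM, and all ranges overlapped. It was lower in cDC1 than in cDC2 by 0.35 ± 0.12 on the log2 scale (adjusted p = 0.019), and this did not pass without the 3 Jchain-rich libraries (adjusted p = 0.068). Without those libraries, the cDC1 minus cDC2 differences of Edem2 (adjusted p = 0.16), Sel1l (adjusted p = 0.059) and Kdelr1 (adjusted p = 0.074) did not pass either.

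Of the 12 genes of translocation and signal peptide cleavage, 8 were higher in cDC1 than in cDC2, 2 were lower and 2 did not pass. In pDC 11 were higher than in cDC2 and 1 did not pass, and 7 were higher than in cDC1, 1 was lower and 4 did not pass. The sum was highest in pDC, at 2872 to 3107 CPM, against 2205 to 2671 in cDC1 and 1451 to 1815 in cDC2, with no overlap. Sec61a1, the pore subunit of the channel, was at 139, 171.3 and 213 CPM in cDC1, at 74.5, 79.5 and 89.3 in cDC2 and at 191, 200 and 221 in pDC. It was low in cDC2, by 1.10 ± 0.08 against cDC1 (adjusted p = 1.3e-09) and 1.33 ± 0.09 against pDC (adjusted p = 2.0e-11). The small subunits differed less: Sec61b was at medians of 349, 300 and 408 CPM and did not pass between cDC1 and cDC2 (adjusted p = 0.093), and Sec61g was at 71.5, 50.8 and 66.7.

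Signal peptidase removes the signal peptide, and its listed subunits Spcs1, Spcs2 and Sec11c were highest in pDC. Spcs2 was at 282, 362 and 410 CPM in cDC1, at 178, 197 and 225 in cDC2 and at 489, 507 and 559 in pDC, and the subsets did not overlap. Its difference was 1.38 ± 0.09 for pDC minus cDC2 (adjusted p = 1.8e-11). Sec11c, a catalytic subunit, was at 358, 420 and 454 CPM in cDC1, at 242, 249 and 267 in cDC2 and at 597, 619 and 667 in pDC, with no overlap, and differed by 1.32 ± 0.06 for pDC minus cDC2 (adjusted p = 2.9e-13) and 0.61 ± 0.06 for pDC minus cDC1 (adjusted p = 4.7e-08). Spcs1 was higher in pDC than in cDC1 by 0.42 ± 0.09 (adjusted p = 0.00023).

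The translocon-associated proteins, Ssr1 to Ssr4, had 3 different orders. Ssr3 was at 153, 173.1 and 206 CPM in cDC1, at 59.0, 65.0 and 76.6 in cDC2 and at 106, 108 and 121 in pDC, with no overlap, and differed by 1.42 ± 0.08 for cDC1 minus cDC2 (adjusted p = 1.3e-11). Ssr4 was highest in pDC, at medians of 193, 141 and 239 CPM in cDC1, cDC2 and pDC. Ssr2 was lowest in cDC2, at medians of 184, 99.4 and 167.5 CPM. Ssr1 was close to level, at 144, 174.1 and 168.4 CPM, and was lower in cDC1 than in cDC2 by 0.23 ± 0.06 on the log2 scale (adjusted p = 0.0014). The translocation helpers also differed from each other. Sec63 was lowest in cDC2, at medians of 71.7, 37.8 and 63.6 CPM in cDC1, cDC2 and pDC, and its partner Sec62 was lowest in cDC1, at 83.0, 107 and 129 CPM.

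In COPII transport, which carries folded cargo out of the ER, Sec24d had the largest difference of the list. Sec24d (chromosome 3, 123267455 to 123365641, plus strand) encodes a cargo-selecting subunit of the coat and holds the UPR element core shown above. It was at 23.1, 26.2 and 30.2 CPM in cDC1, at 4.29, 4.69 and 5.77 in cDC2, and at 140, 154 and 171.4 in pDC. The 3 ranges were far apart. The log2 difference was 2.41 ± 0.09 for cDC1 minus cDC2 (adjusted p = 2.9e-14), 2.57 ± 0.09 for pDC minus cDC1 (adjusted p = 1.0e-15) and 4.98 ± 0.10 for pDC minus cDC2 (adjusted p = 1.1e-18).

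Sec23b, its partner in the inner coat, was at medians of 55.1, 49.9 and 74.1 CPM and was higher in pDC than in cDC1 by 0.45 ± 0.07 (adjusted p = 4.6e-06). The KDEL receptors return escaped ER proteins from the Golgi. Kdelr1 was at 29.3, 32.7 and 37.4 CPM in cDC1, at 25.8, 29.0 and 30.1 in cDC2 and at 50.5, 57.2 and 62.1 in pDC, and all pDC libraries were above all others. It was higher in pDC by 0.80 ± 0.07 over cDC1 (adjusted p = 2.7e-09) and by 1.00 ± 0.07 over cDC2 (adjusted p = 9.3e-11). Kdelr2 was instead low in cDC2, at medians of 59.7, 37.1 and 53.5 CPM, and did not pass between pDC and cDC1 (-0.12 ± 0.07, adjusted p = 0.12).

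Levels of different genes can be set beside each other only per length, here as mean CPM per kb of exon in GENCODE M21. That length joins all exons annotated for a gene. It can exceed the length of the transcript expressed, and the ranks depend on it. On that scale Pdia3 led in cDC1 at 577, followed by Sdf2l1 at 390, Calr at 376, Hspa5 at 368 and Herpud1 at 310. In cDC2 the order was Herpud1 at 395, Sec61b at 232, Pdia3 at 175, Hspa5 at 170.7 and Calr at 158.3. In pDC it was Herpud1 at 370, Sec61b at 318, Hsp90b1 at 269, Pdia3 at 244 and Hspa5 at 212, with Xbp1 next at 203. Sdf2l1 ranked number 2 of the 44 in cDC1, 6 in cDC2 and 18 in pDC. Xbp1 ranked 17, 15 and 6. The sensors Ern1 and Eif2ak3 were among the lowest in every subset, at 1.19 to 2.86 CPM per kb.

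Within a subset the 44 genes varied little between libraries. The median coefficient of variation was 11.7% in cDC1, 9.67% in cDC2 and 7.0% in pDC. The largest was that of Hyou1 in cDC1 (20.8%) and of Derl3 in cDC2 (35.4%) and pDC (32.9%), the latter at low counts. In cDC1, libraries 1 and 2 had the lowest sums over the 44 genes, at 10607 and 10914 CPM, against 12775 to 13727 in the other 4. The same libraries had the lowest Hspa5 (1158 and 1312 CPM) and Pdia3 (1261 and 1625 CPM), against at least 1606 for Hspa5 and 1819 for Pdia3 in the other 4. Their Jchain levels were 105 and 269 CPM, and the part of other cells or of genotype in this spread was not tested.

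The genes that hold ERSE or ERSE-II in their promoter window were set beside those that do not. Of the 10 that do, 9 were higher in cDC1 than in cDC2 and 1 (Herpud1) was lower, with a median log2 difference of 1.24. Of the 26 others with a window, 17 were higher, 3 were lower and 6 did not pass, with a median of 0.29. Between pDC and cDC1, 0 of the 10 were higher, 6 were lower and 4 did not pass (median -0.43), while of the 26, 14 were higher, 7 were lower and 5 did not pass (median 0.27). Between pDC and cDC2, 8 of the 10 were higher, 0 were lower and 2 did not pass, with a median of 0.60. Of the 26, 20 were higher, 2 were lower and 4 did not pass, with a median of 0.61. Over all tested genes, 24.8% were higher and 25.7% lower in cDC1 than in cDC2. In pDC against cDC1, 32.1% of all tested genes were higher and 34.3% lower. In pDC against cDC2, 32.0% were higher and 32.2% lower. The counts and medians by motif are descriptions of 36 genes, with no test of the difference, and 8 of the 10 are chaperones, isomerases or their cofactors. All 11 listed chaperones and cofactors (median 1.25) and all 4 isomerases (median 1.47) were higher in cDC1 than in cDC2, whether or not a match was found. Motif and role were not separated.

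Other genes of the same pathway, 106 symbols of which 97 were tested, followed a similar division by adjusted p. By the 2-fold rule they did not between cDC1 and cDC2. Between cDC1 and cDC2 62 were higher, 11 were lower and 24 did not pass. Between pDC and cDC2 61 were higher, 17 were lower and 19 did not pass. Between pDC and cDC1 33 were higher, 32 were lower and 32 did not pass. Of all tested genes, 24.8% were higher and 25.7% lower in cDC1 than in cDC2. The shares were 32.0% and 32.2% for pDC against cDC2, and 32.1% and 34.3% for pDC against cDC1. By the 2-fold rule, 9 were higher and 8 lower in cDC1 than in cDC2, against 8.12% and 9.61% of all tested genes. For pDC against cDC2, 15 were higher and 7 lower, against 12.6% and 17.4%. For pDC against cDC1, 8 were higher and 11 lower, against 13.1% and 17.2%. Of the other pathway genes called between pDC and cDC1, 50.8% were higher in pDC, close to the 48.3% over all tested genes. In the group of folding and oxidation genes 15 of 18 were higher in cDC1 than in cDC2 and none was lower, and 13 were higher in pDC than in cDC2 and none was lower. In N-glycosylation 8 of 10 were higher in cDC1 and 9 of 10 in pDC than in cDC2, and none was lower.

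Pdia5, another disulfide isomerase, had the largest difference of these genes. It was at 158.3, 243 and 278 CPM in cDC1, at 1.24, 1.66 and 2.37 in cDC2 and at 36.8, 40.6 and 43.2 in pDC. The ranges were far apart, with log2 differences of 7.12 ± 0.17 for cDC1 minus cDC2 (adjusted p = 3.4e-17) and -2.50 ± 0.13 for pDC minus cDC1 (adjusted p = 7.6e-13). Mzb1, a BiP-associated cofactor known from B cells, plasma cells and pDC, was at 109, 127 and 155 CPM in pDC, against 2.01 to 9.86 in cDC1 and 0 to 2.61 in cDC2. It was higher in pDC than in cDC1 by 4.71 ± 0.43 (adjusted p = 4.8e-09). In cDC1 its highest library was library 2, which also had one of the highest Jchain levels.

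Other genes of PERK signaling and the integrated stress response formed a list of their own, without Eif2ak3 and Atf4, which are described above. Of 12 tested, 9 were lower in pDC than in cDC2 and none was higher. In pDC against cDC1, 9 were lower and 2 higher, and in cDC1 against cDC2, 6 were lower and 4 higher. Of all tested genes, 32.2% were lower and 32.0% higher in pDC than in cDC2. In pDC against cDC1, 34.3% were lower and 32.1% higher, and in cDC1 against cDC2, 25.7% and 24.8%. The sum over this list was 1141 to 1736 CPM in cDC2, 647 to 961 in cDC1 and 330 to 436 in pDC, with no overlap. Atf3 alone made up a large part of the cDC2 sum. Atf3, a stress-induced transcription factor, was at 475, 681 and 901 CPM in cDC2, at 86.4, 227 and 265 in cDC1 and at 15.5, 36.6 and 42.8 in pDC, and differed by -4.33 ± 0.27 for pDC minus cDC2 (adjusted p = 1.2e-11). Slc7a11, the cystine transporter and a target of ATF4, was at 24.1, 30.1 and 43.4 CPM in cDC2, at 1.67, 2.81 and 3.54 in cDC1 and at 0.550, 0.754 and 1.65 in pDC, and differed by -3.53 ± 0.23 for cDC1 minus cDC2 (adjusted p = 9.2e-11).

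Nupr1, a stress-induced chromatin protein, had the same order without overlap, at medians of 18.2 CPM in cDC2, 1.99 in cDC1 and 0.398 in pDC. Ddit4, an inhibitor of mTORC1, was at medians of 0.708 CPM in cDC1, 3.91 in cDC2 and 1.63 in pDC. Asns, the asparagine synthetase gene and a target of ATF4, did not follow them: it was highest in cDC1, at 5.78, 10.1 and 14.7 CPM, against 1.69 to 2.80 in cDC2 and 0 to 1.58 in pDC. The difference was 2.07 ± 0.46 for cDC1 minus cDC2 (adjusted p = 0.00081). Creb3l3, a relative of ATF6 known from liver, was at 1.32 to 2.80 CPM in cDC2 and at 0 to 0.242 in both other subsets.

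**Figure D4:**
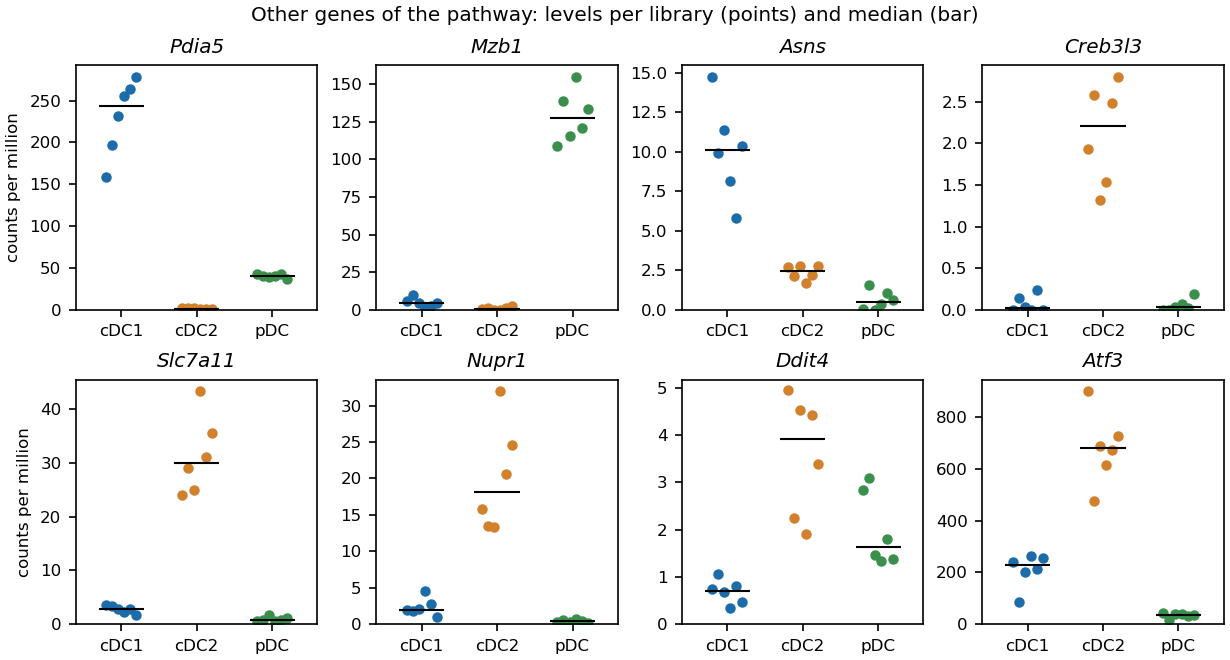
Levels in CPM (vertical axes from 0, a separate scale for each gene) of 8 other genes of the pathway in the 6 libraries of each subset (points), with the median as a bar. Pdia5 and Asns were highest in cDC1, Mzb1 in pDC, and Creb3l3, Slc7a11, Nupr1, Ddit4 and Atf3 had their highest medians in cDC2.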

How the data were processed

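RNA was measured by sequencing in 18 samples of sorted splenic dendritic cells. The deposited raw tables hold counts per gene symbol. Kallisto, DESeq2 and the build GRCm38 are named, without role or version, per the submitters' processing notes. The sources used here do not say how reads shared by related genes were assigned. The lowest row total in the deposited tables is 10 counts. The deposited normalized tables, 18 value columns, were not used because each was scaled on its own. No column could be matched to a sample, so subset was taken from the table and genotype was not used.

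The 3 raw tables were joined on the 15219 shared symbols, which held at least 99.8% of each library's counts. Library totals were 23530860 to 37105002, so counting error is small for all but the lowest genes. Counts were tested with edgeR 4.0.16 (R 4.3.3), with TMM factors (0.851 to 1.14), its filter on low counts, a quasi-likelihood fit over all 18 libraries with subset as the only term, and Benjamini-Hochberg adjustment over 13539 genes. A gene was called at an adjusted p under 0.05, and by a second rule also at 2-fold or more. CPM is the count scaled to the library's total in shared genes times its TMM factor. The standard error was taken from the log2 fold change and its F value. The code was tested on simulated data. Alternatives were DESeq2 1.42.0, limma 3.58.1 (voom), other scalings, no filter, a fit to the 2 subsets compared, and leaving out libraries.

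Named genes were the sensors, Hspa5, Hsp90b1, the 10 listed and 5 other pathway genes with the largest called changes per comparison, and further listed genes to account for all. The genes and lists were chosen with earlier results of these data known. Positions are those of GENCODE M21, and promoter windows those of RefSeq.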

Additional observations from a re-analysis of the deposited data

Results flagged for a closer look

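In 8 of 156 groups of 6 libraries (1 gene in 1 subset each), the highest or lowest library stood apart by more than Dixon's critical ratio of gap to range. Chance flags about 1 in 20 such groups. Ern1 was at 15.2 CPM in cDC2 library 4, where the next library was at 10.1. Derl1 was at 125 CPM in pDC library 2 (next 145), Ssr4 at 147 CPM in cDC1 library 6 (next 190), Spcs1 at 148 CPM in cDC2 library 1 (next 177) and Kdelr2 at 49.0 CPM in cDC1 library 2 (next 57.2). Atf3 was low in cDC1 library 2, at 86.4 CPM (next 203), and in pDC library 2, at 15.5 CPM (next 33.0). Creb3l3 was at 0.193 CPM in pDC library 6 (next 0.0687), which is close to the level of a few counts. Whether these differences belong to genotype was not tested.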

How the results depend on the processing

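No paired analysis was possible because no column name gives a replicate. Over all alternatives, the listed genes called higher in cDC1 than in cDC2 numbered 30 to 34 and those called lower 4 to 5. For pDC against cDC1 they numbered 17 to 22 and 10 to 15, and for pDC against cDC2 35 to 38 and 2. With library totals in place of TMM factors, the other pathway genes in pDC against cDC1 were 20 lower, 14 higher by 2-fold and 6 lower by 2-fold (32, 8 and 11 with TMM), and in pDC against cDC2 25 were higher by 2-fold (15 with TMM). That scaling moved the share of higher calls over all tested genes from 48.3% to 61.4% for pDC against cDC1, from 49.9% to 62.7% for pDC against cDC2, and, among other pathway genes, from 50.8% to 71.0% for pDC against cDC1. It moved the median of all tested genes to 0.17 and 0.20.

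The listed genes lower in pDC than in cDC2 by 2-fold numbered 0, and 1 (Sdf2l1) in a fit to these 2 subsets; leaving out 1 library gave 0 to 1, and 1 without cDC2 library 2 or pDC library 1, 3 or 4. Differences that changed sign were all of genes not called. With library totals, pDC minus cDC1 became 0.070 for Canx, 0.084 for Dnajc3, 0.082 for Pdia4, 0.073 for Sec61g, 0.088 for Sec63 and for Ssr2, and 0.086 for Kdelr2, and pDC minus cDC2 became 0.14 for Ddit3, 0.10 for Herpud1, 0.045 for Edem1 and 0.17 for Ssr1. Manf (pDC minus cDC1) was -0.00088 with upper-quartile factors. With library totals, Manf (0.23, adjusted p = 0.0054) and Sec61b (0.39, adjusted p = 0.0063) passed as higher in pDC than in cDC1. Leaving out 1 library gave ranges that span 0: -0.025 to 0.071 for Manf and -0.021 to 0.076 for Derl1 (pDC minus cDC1), -0.15 to 0.024 for Ern1 (cDC1 minus cDC2), and -0.13 to 0.037 for Ddit3 and -0.053 to 0.013 for Ssr1 (pDC minus cDC2). Without the 3 Jchain-rich libraries, an alternative chosen after seeing the data, Manf, Ddit3 and Ssr1 were at -0.012, 0.0076 and 0.012 in the same comparisons. Leaving out 1 library also changed some calls. For cDC1 against cDC2, Edem1 no longer passed without cDC1 library 1, 4 or 6, cDC2 library 1, 2, 3 or 6, or pDC library 1, 3, 4, 5 or 6 (adjusted p = 0.050 to 0.14), Edem2 without cDC1 library 6 or cDC2 library 1 or 2 (0.060 to 0.078), and Kdelr1 without cDC1 library 1, cDC2 library 1 or pDC library 6 (0.052 to 0.098), while Sec61b passed without cDC1 library 6 or cDC2 library 4 (0.022 to 0.032) and Spcs1 without cDC1 library 6 or cDC2 library 2 (0.0043 to 0.047). For pDC against cDC1, Hsp90b1 passed without cDC1 library 4, cDC2 library 1 or pDC library 6 (0.022 to 0.043), Herpud1 without cDC2 library 1 or pDC library 2, 4 or 6 (0.017 to 0.036), Sec63 without cDC1 library 1 (0.040) and Kdelr2 without cDC1 library 2 (0.032). For pDC against cDC2, Atf4 passed without cDC1 library 4 or 6, cDC2 library 1 or pDC library 4, 5 or 6 (0.0052 to 0.050). The causes were not tested. Depth limits the genes named at low levels: the lowest library held 19 counts of Derl3, 16 of Slc7a11, 10 of Ddit4, 4 of Nupr1 and 0 of Creb3l3, Mzb1 and Asns.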

Other observations

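The labels tie no library to a genotype, so the level of Hdac1 in each library belongs to no comparison and is given here as values alone. In cDC1, Hdac1 was at 57.9, 76.0 and 77.3 CPM in libraries 1, 2 and 3, and at 6.05, 5.58 and 8.79 in libraries 4, 5 and 6. In cDC2 it was at 76.0, 70.7 and 83.4 CPM in libraries 1, 2 and 3, and at 6.58, 6.02 and 8.0 in libraries 4, 5 and 6. In pDC it was at 109, 102 and 113 CPM in libraries 1, 2 and 3, and at 11.6, 8.46 and 12.9 in libraries 4, 5 and 6. In each subset the values fell into 2 clusters of 3 libraries. No other measurement was compared between these clusters.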
